A study of Mus musculus with 3 samples.

Results

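The regulators of G protein signaling (RGS) were followed in thymic cells sorted as iNKT cells, as 7 genes. These were Rgs1, Rgs2, Rgs3, Rgs10, Rgs14, Rgs16 and Rgs19, out of 30406 gene identifiers shared by the 3 scRNA-seq libraries. The members were selected on their values in earlier results of these data, so their levels are a description and carry no test. The files held 21 Rgs genes with a numbered symbol. The 7 members took 98.5% of all Rgs UMIs (unique molecular identifiers, each standing for 1 captured transcript), with totals over the 3 libraries from 4482 UMIs for Rgs16 to 48119 for Rgs10. The 14 other Rgs genes ran from 0 UMIs, the total of 4 of them, to 816 UMIs for Rgs12.

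RGS proteins speed up the hydrolysis of GTP by G protein alpha subunits and so end the signal of G protein-coupled receptors, among them the chemokine, sphingosine-1-phosphate and prostaglandin receptors that steer lymphocytes. Rgs1, Rgs2, Rgs3 and Rgs16 belong to the small R4 subfamily, Rgs10 and Rgs14 to the R12 subfamily and Rgs19 to the RZ subfamily. In T cells, transcripts of the R4 members are known to follow activation and to dampen migration towards chemokines.

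The study asked how chronic graft-versus-host disease (GvHD) changes the development of thymic iNKT cells, T cells whose invariant receptor binds lipids on CD1d. The C57BL/6 library came from untreated C57BL/6 mice of 7 weeks by the labels. The BM only library came from F1 hosts (C57BL/6 × BALB/c), lethally irradiated and given T cell-depleted marrow of C57BL/6 donors, and the BM + Spl library from F1 mice that received splenic cells with this marrow, which carries GvHD, both taken at 16 weeks of age and 9 weeks after the transplant (BMT). Each pool of thymi was first cleared of CD8+ cells, and TCRβ+ cells that bound the CD1d tetramer and lacked CD24 and NK1.1 were then sorted, a gate that removes NK1.1+ mature NKT1 cells. Several mice were pooled for each of the 3 libraries. No value here therefore has a replicate check, and all ranges in parentheses are 95% intervals that cover counting error only, exact Poisson for levels, Clopper-Pearson for shares of cells and conditional binomial for ratios.

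After the filter on genes and mitochondrial UMIs, 4434, 5970 and 5557 cells of C57BL/6, BM only and BM + Spl remained, with median depths of 12086.5, 4740 and 6495 UMIs. The median share of mitochondrial UMIs was 6.48% in C57BL/6, 0.69% in BM only and 0.51% in BM + Spl. A V beta segment could be called in 19.3% of C57BL/6 cells and in 77.3% and 76.6% of cells of BM only and BM + Spl. The C57BL/6 counts came from another version of Cell Ranger than those of the BMT libraries, and no cell barcode was shared with them, while BM only and BM + Spl shared 43. Strain of the host, age, irradiation, depth, mitochondrial share and counting version differed together between C57BL/6 and the BMT libraries and cannot be told apart. The methods name both 3' and 5' kits without saying which library used which, so a difference in chemistry was not tested either.

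Cells were assigned to gates one by one from marker genes, none of them an Rgs gene. The NKT1-like gate (markers such as Tbx21, Il2rb and Nkg7) held 845, 2466 and 601 cells in C57BL/6, BM only and BM + Spl, and the NKT2-like gate (Zbtb16, Il17rb, Il4) held 1757, 806 and 1378. The NKT17-like gate (markers such as Il23r and Blk) held 205, 354 and 126. With the Ccr7+ precursor-like, interferon-like and cycling-like gates, these are called iNKT gates below, as a short name from markers. The name does not mean that each cell was an iNKT cell. In BM + Spl, 38.5% of NKT1-like and 45.6% of NKT17-like cells with a called V beta segment carried one typical of iNKT cells. Treg-like cells (Foxp3, Il2ra, Ctla4) numbered 774 in BM only and 1078 in BM + Spl but 9 in C57BL/6. The gate called Cd8a+Cd8b1+ took cells with T cell markers and UMIs of both Cd8a and Cd8b1. Cells already in the plasmacytoid dendritic, B, myeloid, erythroid or Treg-like gates were left out of it. It held 126 and 276 cells but 3 in C57BL/6, so both gates are described in the BMT libraries alone. Levels are given as CPM, the summed UMIs of a gene per 1000000 UMIs of the gate. UMI capture differs between genes, so levels were compared between gates and libraries and not between genes.

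The 7 genes lie at 5 places in the genome by the GENCODE vM21 annotation of GRCm38, the build (mm10) of the files, and all 7 file identifiers matched it. The R4 members other than Rgs3 share chromosome 1: Rgs2 (chr1:143999338-144004161, minus strand), Rgs1 (chr1:144242296-144249242, minus strand), 238134 bases apart, and Rgs16 (chr1:153740349-153745468, plus strand), 9491106 bases beyond Rgs1. Rgs3 lies at chr4:62559847-62704001, Rgs10 at chr7:128373621-128418758, Rgs14 at chr13:55369732-55384687 and Rgs19 at chr2:181688419-181693977. Gm15503, which is not among the shared identifiers, overlaps 3374 bases of Rgs10 on the same strand, so reads of the pair cannot be told apart there. Antisense genes overlap Rgs3 (Gm11209) and Rgs16 (Gm28513), and whether counting used the strand is not given in the sources used here. Gm28513 had 10, 30 and 16 UMIs in C57BL/6, BM only and BM + Spl, against 103, 1372 and 3007 of Rgs16.

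Of the 7 members 5 had a promoter in the RefSeq table used here (GRCm38.p6): Rgs2, Rgs3, Rgs10, Rgs16 and Rgs19. The 250 bases before the start site are shown for Rgs16, whose level differed most between the BMT libraries, and for Rgs2, another R4 member of chromosome 1, which stayed within 1.5-fold. Capitals mark matches on either strand to TGACG, the core of the cAMP response element, and to CCAAT, the CCAAT box.
Rgs16 (chr1:153740103-153740352, plus strand): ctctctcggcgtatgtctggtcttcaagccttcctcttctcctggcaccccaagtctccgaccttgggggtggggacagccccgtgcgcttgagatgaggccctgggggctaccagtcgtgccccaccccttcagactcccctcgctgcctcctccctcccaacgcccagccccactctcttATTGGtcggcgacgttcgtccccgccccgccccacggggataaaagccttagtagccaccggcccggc
Rgs2 (chr1:144004150-144004399, minus strand): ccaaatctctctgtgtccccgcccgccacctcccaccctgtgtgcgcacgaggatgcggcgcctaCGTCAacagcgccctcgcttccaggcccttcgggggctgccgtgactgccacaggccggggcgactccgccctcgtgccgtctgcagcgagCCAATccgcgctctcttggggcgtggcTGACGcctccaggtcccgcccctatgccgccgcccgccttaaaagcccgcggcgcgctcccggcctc
TGACG matched 2 times in Rgs2 and 0 times in Rgs16, and 17.8% of 32851 promoters held it in the same 250 bases. CCAAT matched once in each, on opposite strands, and 33.8% of promoters held it. The AP-1 motif TGANTCA, bound by Fos and Jun proteins, matched in none of the member promoters and in 6.75% of all, and the NFAT core GGAAA matched in promoters of Rgs3 and Rgs19 and in 55.6% of all.

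Rgs1, an inhibitor of chemokine-driven migration that is abundant in tissue-resident T cells, separated NKT1-like from NKT2-like cells in all 3 libraries. Its level in NKT1-like cells was 179.9 CPM (169 to 191) in C57BL/6, 629.7 (615 to 645) in BM only and 789 (757 to 823) in BM + Spl. In NKT2-like cells it was 12.1 CPM (10.7 to 13.7), 37.6 (33.0 to 42.6) and 54.2 (50.1 to 58.6). NKT1-like cells were thus 14.8-fold higher in C57BL/6, 16.8-fold in BM only and 14.6-fold in BM + Spl, or 3.89 (3.70 to 4.09), 4.07 (3.88 to 4.26) and 3.86 (3.74 to 3.99) on the log2 scale, and the spread of this difference between libraries was 0.11 (SD, n = 3). The share of NKT1-like cells with a Rgs1 UMI, with each cell thinned to 2700 UMIs, was 30.9% (27.8 to 34.2), 58.4% (56.3 to 60.5) and 60.3% (56.0 to 64.5), against 4.28%, 8.11% and 10.6% of NKT2-like cells. Without thinning these shares were 48.5%, 67.2% and 68.6% against 11.2%, 15.6% and 21.7%.

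NKT17-like cells held Rgs1 at 23.5 CPM (17.9 to 30.4) in C57BL/6, at 474 (444 to 506) in BM only and at 567 (514 to 623) in BM + Spl. They stood 1.94-fold above NKT2-like cells in C57BL/6. In BM only and BM + Spl they stood 3.66 and 3.39 above them on the log2 scale. The NKT17-like gate thus lay nearer to NKT2-like cells in C57BL/6 and nearer to NKT1-like cells in the BMT libraries. Of its cells with a called V beta segment, 89.7%, 68.3% and 45.6% carried one typical of iNKT cells in C57BL/6, BM only and BM + Spl. With such a segment Rgs1 was at 367 CPM in BM only and 442 in BM + Spl. With another segment it was at 719 and 677. The part of this make-up in the Rgs1 levels of the gate was not tested. Cycling-like cells were lowest in C57BL/6 with 5.88 CPM (4.85 to 7.07), not separated from Ccr7+ precursor-like cells with 7.62 (4.59 to 11.9). Outside the iNKT gates, Treg-like cells held 843 CPM (817 to 869) in BM only and 579 (563 to 595) in BM + Spl, and B-like cells 659 (593 to 729) and 782 (708 to 861). In BM only the order ran from Treg-like to B-like and NKT1-like cells, the last pair not separated, and in BM + Spl NKT1-like and B-like cells led and were not separated from each other.

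Rgs2, which acts mainly on Gq and limits calcium signals, also stood higher in the NKT1-like gate than in the NKT2-like gate, with smaller differences. It stood at 205 CPM (193 to 217) in NKT1-like cells of C57BL/6, 145 (138 to 152) of BM only and 144 (130 to 158) of BM + Spl. NKT2-like cells held 88.3 CPM (84.4 to 92.3), 58.5 (52.8 to 64.7) and 75.6 (70.7 to 80.7). NKT1-like cells were 2.32-fold, 2.48-fold and 1.90-fold higher, past 1.5-fold in all 3 libraries. Cycling-like cells were at 45.0, 46.7 and 39.7 CPM, the lowest of the iNKT gates in each library, though not separated from Ccr7+ precursor-like cells in the BMT libraries. In BM only their range (40.4 to 53.7) also overlapped that of NKT2-like cells, with a log2 ratio of -0.33 (-0.58 to -0.07).

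Rgs3, another R4 member that acts on Gi and Gq, was lower in NKT17-like than in NKT2-like cells of each library. Its levels in NKT17-like cells were 31.6 CPM (25.0 to 39.5), 42.4 (33.7 to 52.6) and 55.1 (39.5 to 74.7) in C57BL/6, BM only and BM + Spl. NKT2-like cells held 90.0 CPM (86.1 to 94.0), 104 (95.8 to 112) and 85.5 (80.4 to 91.0), and NKT1-like cells 126 (117 to 136), 177 (169 to 185) and 107 (95 to 119). The difference of NKT17-like from NKT2-like cells passed 1.5-fold each time, with NKT17-like cells lower by 1.51 (1.18 to 1.85), 1.29 (0.95 to 1.64) and 0.64 (0.19 to 1.12) on the log2 scale. The difference of NKT1-like over NKT2-like cells passed 1.5-fold in BM only alone (1.71-fold), with 1.40-fold in C57BL/6 and 1.25-fold in BM + Spl. NKT17-like cells were the lowest iNKT gate in all 3 libraries, but were not separated from cycling-like or Ccr7+ precursor-like cells in BM + Spl. Plasmacytoid dendritic (pDC)-like cells held 13.8 and 12.5 CPM in the BMT libraries.

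Rgs16, a Gi and Gq regulator induced on T cell activation, was at its lowest in the iNKT gates of C57BL/6. NKT2-like cells held 3.36 CPM (2.64 to 4.21, 75 UMIs), NKT1-like cells 0.53 (0.11 to 1.56, 3 UMIs) and NKT17-like cells 0.41 (0.010 to 2.26, 1 UMI). The 170 Ccr7+ precursor-like cells held 0 UMIs, with an upper bound of 1.48 CPM. In BM only the iNKT gates lay between 2.37 CPM in cycling-like and 9.31 (7.11 to 11.99) in NKT2-like cells, whereas Treg-like cells held 215 (202 to 228) and Cd8a+Cd8b1+ cells 151 (120 to 187). In BM + Spl NKT1-like cells held 249.9 CPM (232 to 269), above Treg-like cells with 176 (167 to 185) and Cd8a+Cd8b1+ cells with 172 (151 to 195), which were not separated from each other. NKT17-like cells of BM + Spl followed with 83.2 (63.8 to 107) and NKT2-like cells held 15.2 (13.1 to 17.6).

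Rgs10, a short RGS protein abundant in resting lymphocytes, ran opposite to Rgs1 between NKT1-like and NKT2-like cells. NKT1-like cells held 255 CPM (242 to 268), 180.3 (172 to 189) and 249 (231 to 268) in C57BL/6, BM only and BM + Spl. NKT2-like cells held 475 (466 to 484), 393 (378 to 408) and 440.1 (428 to 452). NKT1-like cells were the lowest of the iNKT gates in all 3 libraries and lower than NKT2-like cells by 0.90 (0.82 to 0.98), 1.12 (1.04 to 1.21) and 0.82 (0.71 to 0.94) on the log2 scale. Ccr7+ precursor-like, NKT2-like and NKT17-like cells were all above them, with levels from 325 CPM in NKT17-like cells of BM only to 520.5 in Ccr7+ precursor-like cells of BM + Spl. B-like cells were lowest of all gates, with 50.2 CPM (33.4 to 72.6) and 132 (103 to 167).

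Rgs14, an RGS protein that also binds Gi through a second domain, and Rgs19, an inhibitor of Gi signals, differed little between NKT1-like and NKT2-like cells. Rgs14 was at 34.0, 50.4 and 42.3 CPM in NKT1-like and at 34.1, 49.0 and 46.6 in NKT2-like cells of the 3 libraries, with log2 differences of 0.00 (-0.24 to 0.23), 0.04 (-0.16 to 0.24) and -0.14 (-0.43 to 0.15). Its low gate was cycling-like cells, with 22.4 CPM (20.3 to 24.6), 25.8 (21.2 to 31.1) and 32.0 (28.0 to 36.3). These lay below NKT2-like cells past 1.5-fold in C57BL/6 (log2 -0.60) and BM only (-0.93), and within it in BM + Spl (-0.54). Rgs19 ran from 53.7 CPM in NKT1-like to 71.4 in Ccr7+ precursor-like cells of C57BL/6 and from 94.0 in Treg-like to 138 in Ccr7+ precursor-like cells over both BMT libraries.

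**Figure D1:**
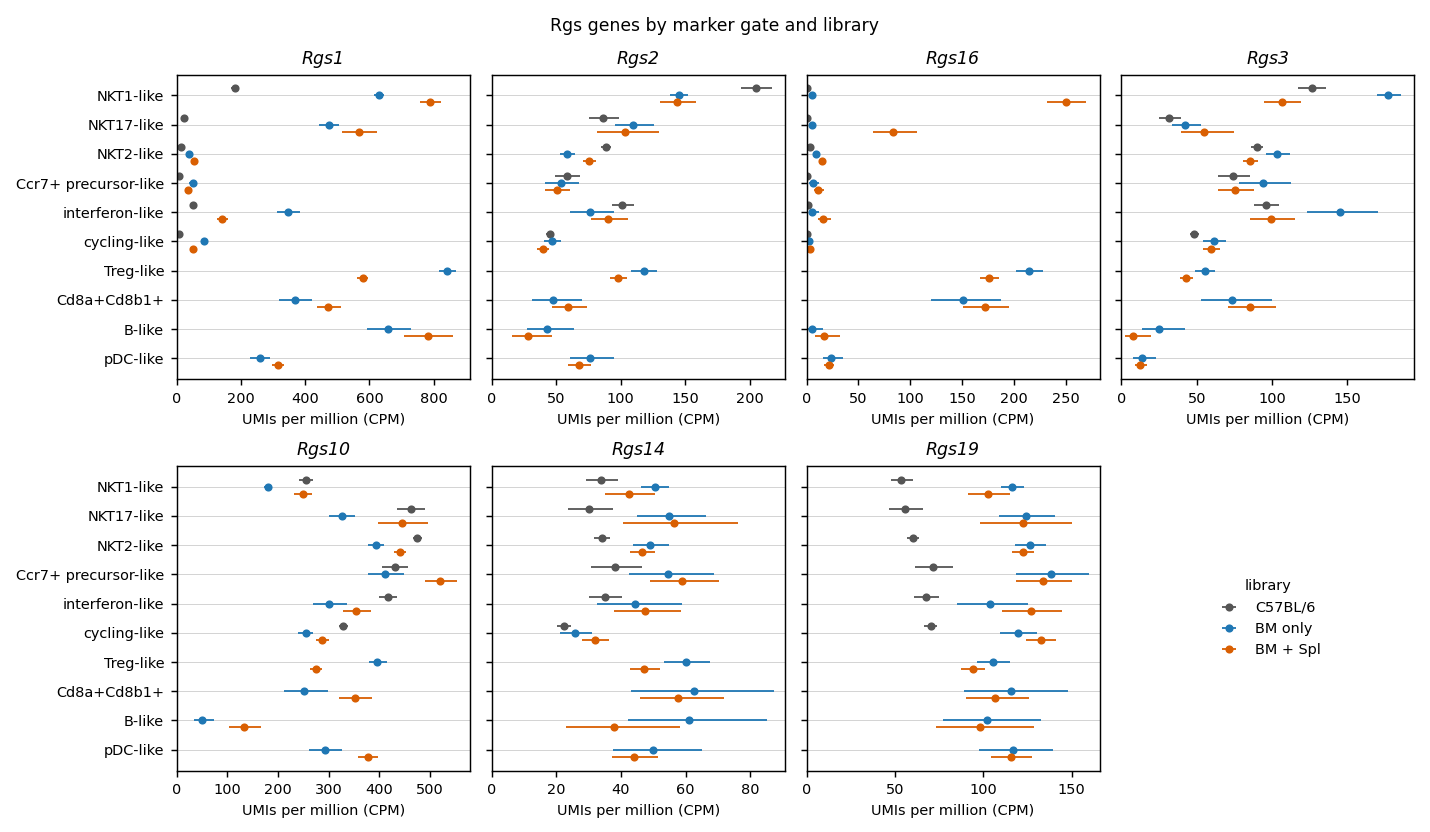
Level of each Rgs gene, in CPM, by marker gate (rows) and library (colours), for gates of 50 or more cells, with exact Poisson 95% intervals as bars. Rgs1 is higher and Rgs10 lower in NKT1-like than in NKT2-like cells of all 3 libraries. Rgs16 is high in Treg-like and Cd8a+Cd8b1+ cells and in NKT1-like cells of BM + Spl, where it reaches 249.9.

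Counted over the members, 2 were higher and 2 lower past 1.5-fold in NKT1-like than in NKT2-like cells of C57BL/6. Of 7969 genes with at least 200 UMIs, 12.2% were higher and 8.52% lower. Members counted from 20 UMIs, a lower floor than that of the shares over all genes. Rgs16, among the lower in C57BL/6 and BM only, had 3 against 75 and 61 against 60 UMIs there. In BM only 3 were higher and 2 lower, beside 14.7% and 10.4% of all genes, and in BM + Spl 3 were higher and 1 lower, beside 14.0% and 11.3%. Rgs1 and Rgs2 were higher and Rgs10 lower in each library, and Rgs3, Rgs14 and Rgs19 kept within 0.46 on the log2 scale between libraries. Rgs16 did not keep a direction, with -2.65 (-4.96 to -1.05), -0.73 (-1.27 to -0.19) and 4.04 (3.798 to 4.28). NKT17-like cells of C57BL/6 had 1 member higher than NKT2-like cells, Rgs1, and 2 lower, Rgs3 and Rgs16 (1 UMI in NKT17-like cells), where 8.25% and 6.51% of genes were.

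**Figure D2:**
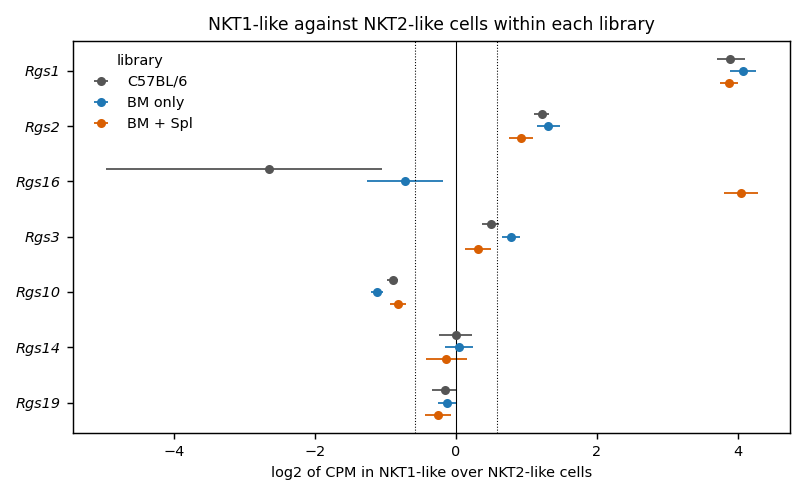
Log2 ratio of CPM in NKT1-like over NKT2-like cells for each Rgs gene in the 3 libraries, with conditional binomial 95% intervals as bars and dotted lines at 1.5-fold. Rgs1 lies between 3.86 and 4.07, Rgs10 is below 0 throughout, and Rgs16 runs from -2.65 in C57BL/6 to 4.04 in BM + Spl.

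The comparison of BM + Spl with BM only bears on GvHD. In NKT1-like cells Rgs16 was 44.5-fold higher in BM + Spl (720 against 61 UMIs), a log2 ratio of 5.47 (5.10 to 5.88). Rgs3 was lower, 107 against 177 CPM (log2 -0.73, -0.91 to -0.56), and the other 5 members stayed within 1.5-fold, among them Rgs1 with 0.33 (0.26 to 0.40) and Rgs10 with 0.46 (0.34 to 0.59). Thus 1 member was higher and 1 lower, where 7.61% and 9.54% of 6676 genes were. Rgs16 UMIs were found in 29.8% of NKT1-like cells of BM + Spl, against 1.30% of BM only and 2.94% of the deeper cycling-like cells of BM + Spl (median 15378.5 against 4203 UMIs). At 2700 UMIs per cell the share was 24.3% (20.8 to 28.2) against 1.09% (0.69 to 1.64). A single cell held up to 45 UMIs, and the highest 1% of cells held 22.6% of the Rgs16 UMIs of the gate.

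What the NKT1-like gate held also differed between these libraries. Of its cells with a called V beta segment, 92.5% (91.3 to 93.6) carried a segment typical of iNKT cells in BM only and 38.5% (34.4 to 42.9) in BM + Spl, while Treg-like cells, which need not be iNKT cells, carried one in 31.2% and 30.8%. Zbtb16, the transcription factor of the iNKT lineage, stood at 47.5 CPM in NKT1-like cells of BM only and at 18.7 in those of BM + Spl. The summed level of the 6 regulatory T cell markers was 83.8 and 626 CPM, and that of Cd8a and Cd8b1 was 14.4 and 41.3. Foxp3 itself was at 0.55 and 1.74 CPM, against 377 and 292 in Treg-like cells.

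Subsets of the NKT1-like gate were therefore read separately, a choice made after these values were seen. Among cells with an iNKT V beta segment Rgs16 was at 3.89 CPM (2.68 to 5.47) in BM only and 282 (249 to 318) in BM + Spl, and among cells with another segment at 16.7 (8.32 to 29.8) and 223 (199.8 to 249). Among the 1832 and 151 cells without a UMI of a regulatory T cell or CD8 marker it was at 1.77 (0.97 to 2.98) and 34.5 (21.6 to 52.3), and among the 634 and 450 cells with one at 15.9 (11.7 to 21.1) and 311 (288 to 335). Among the 401 and 36 cells with a Zbtb16 UMI it was at 3.01 (1.10 to 6.55, 6 UMIs) and 41.2 (17.8 to 81.2, 8 UMIs in 3 cells). Rgs16 was higher in BM + Spl in every one of these subsets, though with Zbtb16 the 6 and 8 UMIs were too few for a call. The log2 ratio was 6.18 with an iNKT segment, 3.74 with another segment, 4.28 without the markers and 3.78 with Zbtb16, beside 5.47 over the gate. The 450 of 601 cells of BM + Spl with a regulatory T cell or CD8 marker held 698 of its 720 Rgs16 UMIs. A UMI of such a marker does not by itself single out cells of another lineage. In C57BL/6, 47.7% of NKT1-like cells held one, and 92.3% of these with a called segment carried an iNKT segment. Ctla4, 1 of these markers, was also the gene that ran most like Rgs16 over the gates (Pearson's r 0.95). The split is therefore not independent of Rgs16. Of the 36 cells with Zbtb16, 86.7% of those with a called segment carried an iNKT segment. An iNKT segment does not by itself single out iNKT cells. Of cells of BM + Spl with a called segment, 30.8% of Treg-like and 36.3% of Cd8a+Cd8b1+ cells carried one. Within NKT1-like cells of BM + Spl, 1.94% of 1749 genes were higher and 1.49% lower past 1.5-fold with another than with an iNKT segment. The part of cells of another lineage in the Rgs16 difference was not tested beyond these values.

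**Figure D3:**
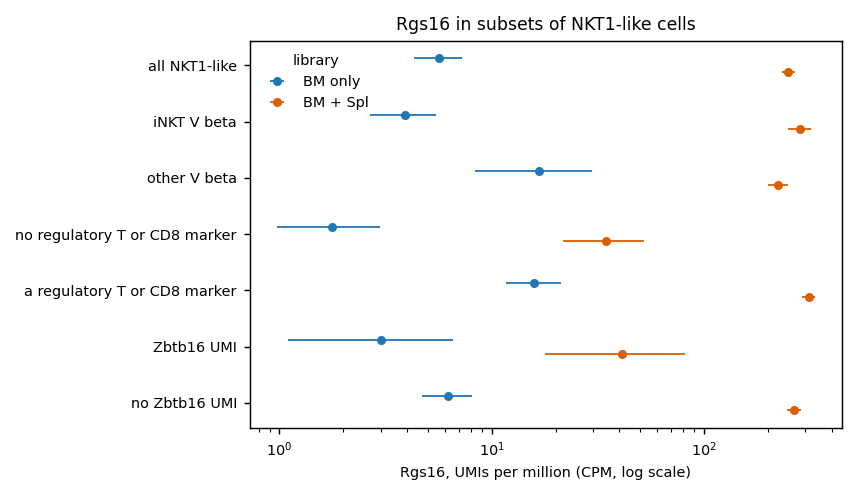
Rgs16 level, in CPM on a log axis, in subsets of NKT1-like cells of BM only and BM + Spl, with exact Poisson 95% intervals as bars. BM + Spl lies to the right in each subset, at 34.5 without a regulatory T cell or CD8 marker and 41.2 with a Zbtb16 UMI against 249.9 over the whole gate.

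Rgs3 differed among these subsets. With another V beta segment it was at 148 CPM in BM only and 79.6 in BM + Spl, log2 -0.90 (-1.30 to -0.50). With a Zbtb16 UMI its level was 180.0 CPM (162 to 199.6) in BM only and 185 (129.9 to 257) in BM + Spl, and with an iNKT V beta segment 181 (172 to 191) and 131 (109 to 156), within 1.5-fold in both, with an interval that left out 0 for the iNKT segment (log2 -0.47, -0.75 to -0.21). Without a regulatory T cell or CD8 marker it was at 170.4 (161 to 179.8) and 155 (126 to 189). Rgs1 did not keep 1 direction. It was at 614 CPM (597 to 631) and 782 (727 to 841) with an iNKT segment, at 624 (606 to 641) and 1018 (941 to 1100) without a regulatory T cell or CD8 marker, past 1.5-fold, and at 569 (536 to 603) and 428 (341 to 530) with a Zbtb16 UMI, where BM + Spl was the lower. With another V beta segment, 2 members were higher in BM + Spl, Rgs16 and Rgs10 (log2 0.59, 0.29 to 0.90). Rgs3 and Rgs14 (-0.80, -1.39 to -0.21) were the 2 lower there. Of 1527 genes, 10.0% were higher and 5.76% lower in that subset.

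NKT2-like cells, of which 93.4% and 89.4% carried an iNKT segment, differed less. Rgs16 was 1.64-fold higher in BM + Spl (15.2 against 9.31 CPM) and was the 1 member past 1.5-fold, with none lower, where 0.611% of 7198 genes were higher and 0.889% lower. Among NKT2-like cells with an iNKT segment it was at 5.83 CPM (4.39 to 7.58) in BM + Spl and 8.57 (6.25 to 11.5) in BM only, log2 -0.56 (-1.15 to 0.05), an interval that holds 0, and no member was past 1.5-fold there, where 0.274% of 6571 genes were higher and 0.898% lower. Among NKT2-like cells with another segment, 126 in BM + Spl and 45 in BM only, it was at 118 (95.2 to 144) and 40.0 (19.98 to 71.6). Rgs1 had the same split in BM + Spl, with 38.5 CPM (34.6 to 42.6) beside an iNKT segment and 240.2 (208 to 277) beside another. In BM only Rgs1 was at 35.8 and 87.3 CPM. The log2 ratio of BM + Spl over BM only was 0.10 (-0.15 to 0.37) beside an iNKT segment and 1.46 (0.84 to 2.14) beside another.

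NKT17-like cells had Rgs16 at 5.17 CPM (2.48 to 9.51) in BM only and 83.2 in BM + Spl, a log2 ratio of 4.01 (3.04 to 5.14), and 44 of its 62 UMIs lay in the 56 cells with another V beta segment, up to 21 of them in 1 cell. With an iNKT segment there were 8 UMIs in BM + Spl and 10 in BM only, too few for a call. In Treg-like cells, where Rgs16 was highest in BM only, the ratio was -0.29 (-0.40 to -0.17). All 7 members stayed within 1.5-fold there, as did most genes, with 1.94% of 6792 genes higher and 3.11% lower. Rgs1 was lower in BM + Spl past 1.5-fold in interferon-like cells, with 142 CPM (125 to 161) against 347 (313 to 384), and in cycling-like cells, with 51.4 (46.3 to 56.8) against 85.0 (76.5 to 94.3). The summed level of the 11 NKT1 markers was also lower there, at 547 against 3444 CPM in interferon-like and 376 against 952 in cycling-like cells, and its part in the Rgs1 difference was not tested.

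**Figure D4:**
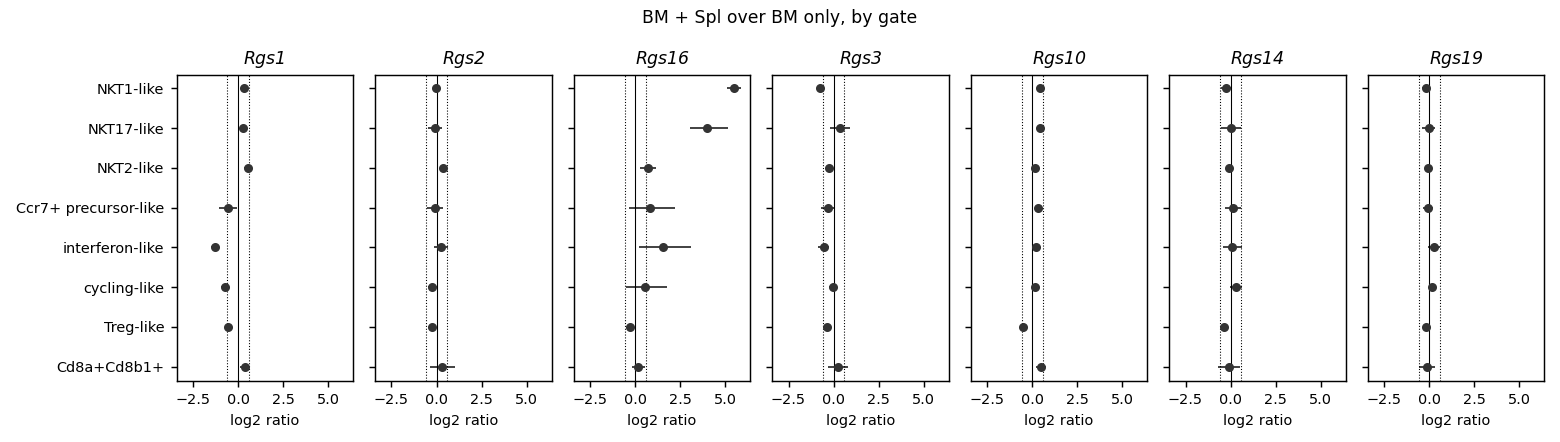
Log2 ratio of BM + Spl over BM only for each Rgs gene in 8 gates, with conditional binomial 95% intervals as bars and dotted lines at 1.5-fold. Rgs16 stands out in NKT1-like (5.47) and NKT17-like cells (4.01) and is at -0.29 in Treg-like cells, while the points of Rgs2, Rgs10, Rgs14 and Rgs19 stay within the dotted lines.

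Over all filtered cells Rgs16 was 1.77-fold higher in BM + Spl (69.7 against 39.4 CPM) and Rgs3 was lower (65.3 against 105 CPM), 1 member each way, where 4.86% and 5.34% of 10612 genes were. Rgs1 was 293 against 420 CPM (log2 -0.52) although it was higher in NKT1-like cells and in NKT2-like cells taken whole. It was also higher, within 1.5-fold, in NKT17-like (0.26), Cd8a+Cd8b1+ (0.36) and pDC-like cells (0.28). Rgs1 was lower in Treg-like (-0.54), Ccr7+ precursor-like (-0.56), cycling-like (-0.73) and interferon-like cells (-1.29). Among NKT2-like cells with an iNKT segment its log2 ratio was 0.10 (-0.15 to 0.37), an interval that holds 0. NKT1-like cells made up 41.3% of BM only and 10.8% of BM + Spl cells, NKT2-like cells 13.5% and 24.8%, and Treg-like cells 13.0% and 19.4%. The part of these shares in the Rgs1 difference was not tested.

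Against C57BL/6, BM only had 3 members higher and none lower in NKT1-like cells, Rgs1 (3.5-fold), Rgs19 (2.17-fold) and Rgs16 (5.62 CPM against 0.53, 3 UMIs; log2 3.398, 1.78 to 5.71), where 23.4% of 7108 genes were higher and 17.4% lower. In NKT2-like cells the same 3 were higher, Rgs1 3.097-fold, Rgs19 2.11-fold and Rgs16 2.78-fold, and Rgs2 was lower (58.5 against 88.3 CPM), where 21.8% and 16.3% were. With the scaling by median of ratios, Rgs2 (log2 -0.59) and Rgs10 (-0.59) were also past 1.5-fold, both lower, in NKT1-like cells. The median of all genes stood 0.10 higher in both comparisons, and a scaling that sets it to 0 shifts each ratio by 0.09 and 0.12. These libraries differed in many other genes as well. Fos, an early-response gene that also follows tissue dissociation, was at 50.8 and 15.2 CPM in NKT1-like and NKT2-like cells of C57BL/6, at 1455 and 456 in BM only and at 995 and 213 in BM + Spl, and 14 of the 15 dissociation genes were higher in NKT1-like cells of BM only than of C57BL/6, where 23.4% of all genes were. Between the NKT1-like and NKT2-like gates, 14 of 15 of these genes were higher in the former in BM only, 13 of 15 in BM + Spl and 6 of 13 in C57BL/6. The shares over all genes were 14.7%, 14.0% and 12.2%. The median log2 ratios of the dissociation genes were 1.21, 1.48 and 0.54, beside the Rgs1 difference between these gates. Between BM + Spl and BM only, 0 of 15 were higher and 6 lower in NKT1-like cells (median -0.47), where 7.61% and 9.54% of genes were. In NKT2-like cells 0 of 15 were higher and 6 lower (median -0.50), where 0.611% and 0.889% of genes were. The part of this difference in the Rgs levels was not tested.

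Among cells without a Fos UMI, Rgs1 in NKT1-like cells was at 164 CPM (152 to 176) in C57BL/6, 451 (417 to 487) in BM only and 777 (699 to 861) in BM + Spl. Among cells with one it was at 243 (215 to 274), 657 (641 to 673) and 792 (757 to 828). Rgs1 was thus higher beside Fos in C57BL/6 and BM only, was not separated in BM + Spl, and was higher in both BMT libraries than in C57BL/6 in either class of cells. NKT2-like cells of BM + Spl held 29.6 CPM (25.1 to 34.5) without and 74.6 (68.1 to 81.6) with a Fos UMI. The part of Fos induction in these levels was not tested.

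Rgs2 was found more often in Rgs1-bearing than in other cells of most gates compared. At 2700 UMIs per cell, Rgs2 was found in 49.0% (42.8 to 55.3) of Rgs1-bearing and 32.8% (29.0 to 36.7) of other NKT1-like cells of C57BL/6, and in 44.0% (32.5 to 55.9) and 21.6% (19.6 to 23.6) of NKT2-like cells. In NKT2-like cells of BM + Spl it was 37.9% (29.8 to 46.4) against 16.5% (14.4 to 18.7), but in NKT1-like cells of BM + Spl the ranges overlapped, 32.0% (26.9 to 37.4) against 23.1% (17.6 to 29.4). Rgs10 was found more often in Rgs1-bearing NKT1-like cells of C57BL/6, in 55.2% (48.9 to 61.3) against 43.9% (39.8 to 48.0). The same held in Treg-like cells of BM + Spl, with 54.6% (50.6 to 58.5) against 43.8% (38.7 to 49.0). In the other gates compared the ranges for Rgs10 overlapped, as in NKT1-like cells of BM + Spl with 45.7% against 46.2%. In NKT2-like cells of each library the Rgs1-bearing cells had the lower share. In NKT2-like cells of BM + Spl, Rgs16 was found in 15.7% (10.1 to 22.8) of Rgs1-bearing and 2.46% of other cells. In NKT1-like cells of BM + Spl it was found in 26.4% (21.7 to 31.6) and 21.2% (15.9 to 27.4), ranges that overlap.

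Genes that ran most like each member were sought over the 26 gates of 50 or more cells in the 3 libraries, among 9781 genes, as a description, since gates of 1 library share its depth and its handling. Rgs1 ran most like Cd69 (Pearson's r 0.96), a retention receptor, Bhlhe40 (0.95) and Tsc22d3 (0.95). Rgs16 ran most like Ctla4 (0.95) and Tigit (0.95), inhibitory receptors of activated and regulatory T cells, of which Ctla4 is also a gate marker. Rgs2 ran most like Nr3c1 (0.86), the glucocorticoid receptor, Rgs3 like Gm2682 (0.94) and Pitpnc1 (0.93), Rgs10 like Timp2 (0.85), Rgs14 like Bnip3l (0.87) and Rgs19 like Timm23 (0.96). Between members the values ran from -0.51 for Rgs1 with Rgs10 to 0.69 for Rgs1 with Rgs16.

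The partners of RGS proteins were counted as lists, by 1.5-fold among genes with at least 20 UMIs. The shares over all genes count only genes with at least 200 UMIs, a higher floor than that of the lists. The shares over all genes were 12.2% higher and 8.52% lower for NKT1-like over NKT2-like cells of C57BL/6, the first comparison, and 7.61% and 9.54% for BM + Spl over BM only in NKT1-like cells, the second. In the second, the counts over cells with an iNKT V beta segment are given too, where 7.51% and 10.4% of genes were past the fold. Such a segment does not by itself single out iNKT cells. Of 25 lymphocyte G protein-coupled receptors, 15 were higher and 7 lower in NKT1-like than in NKT2-like cells of C57BL/6, with a median log2 ratio of 1.10 beside 0.05 over all genes. Higher were Cxcr3 with 201 against 64.2 CPM and Cxcr6 with 568 against 226, receptors of type 1 chemokines, and Gpr183, an oxysterol receptor, with 74.7 against 16.2. Lower was Ccr9, the receptor that guides thymocytes, with 8.53 against 166 CPM. Between BM + Spl and BM only in NKT1-like cells 7 of 26 receptors were higher and 6 lower, with a median of -0.16, among them Ccr8 with 216 against 102 CPM. With an iNKT segment the counts were 7 and 6 as well.

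Of 9 G protein alpha subunits, 2 were higher and 1 lower in NKT1-like than in NKT2-like cells of C57BL/6. Gnai2, the main Gi subunit of lymphocytes, stood at 581 and 586 CPM, a gene chosen after its values were seen, and Gna13 was higher with 80.7 against 52.2. In BM + Spl over BM only 3 of 8 subunits were higher in NKT1-like cells, Gnaq with 20.5 against 4.88 CPM, Gna15 with 72.2 against 21.7, both of the Gq class, and Gna12, and none was lower. With an iNKT segment 2 were higher, Gnaq and Gna15. Of the beta and gamma subunits 1 of 10 was higher and 4 lower in the first comparison, and 2 of 9 were higher and 2 lower in the second, or 0 of 8 and 1 with an iNKT segment.

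The list of other regulators had 3 of 12 higher and 1 lower between NKT1-like and NKT2-like cells of C57BL/6 and 1 of 13 higher and 3 lower between BM + Spl and BM only in NKT1-like cells, where 1 of 12 was higher and 1 lower with an iNKT segment. The cAMP list had 4 of 14 higher and 2 lower in the first and 1 of 12 and 2 in the second, or 1 of 12 and 5 with an iNKT segment. Of 10 genes of the T cell receptor response, 4 were higher and 5 lower in the first comparison, and 6 were higher and 1 lower in the second, where Nr4a1 stood at 161 against 69.7 CPM and Nr4a2 at 102 against 28.0. With an iNKT segment 5 were higher and 1 lower. Of the other Rgs genes 2 had 20 UMIs in the first comparison, Rgs11 higher and Rgs12 lower, and 3 in the second, of which Rgs9 was higher with 26 against 6 UMIs.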

How the data were processed

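The authors aligned reads to mm10 with Cell Ranger and deposited UMI counts per gene and cell, unnormalized. The headers name Cell Ranger 3.0.2 for C57BL/6 and 7.0.0 for the BMT libraries, while the paper names another version. The filter kept cells whose detected genes lay between 200 and 6000 and whose mitochondrial UMIs made up less than 10%. Counts were summed over the gene identifiers shared by the libraries. Gates took cells with UMIs of set numbers of marker genes, in a fixed order, and the numbers were set after marker counts had been seen. The members, lists and subsets were chosen with earlier results of these data known. V beta segments were called at 80% of a cell's V beta UMIs. A member or a listed gene counted as past 1.5-fold with 20 or more UMIs, and the background counted genes with 200 or more. With 1 library per condition no test was run. Doublets were kept, and an alternative left out the top 6% of UMIs. Named genes outside the members came from fixed lists, or were the 3 most alike by Pearson's r among genes with 500 UMIs. Scripts were checked on simulated counts (pandas 2.3.3, scipy 1.17.1, numpy 2.4.6, Python 3.11.15). Promoter sequences came from RefSeq.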

Additional observations from a re-analysis of the deposited data

Results flagged for a closer look

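The BM + Spl over BM only difference of Rgs16 was below 0 in Treg-like cells and above 0 in 4 gates, with intervals of counting error that left out 0. These differences between gates were not tested, since each library was 1 sample. On the log2 scale the ratio exceeded that of Treg-like cells by 5.76 in NKT1-like and by 4.30 in NKT17-like cells. In interferon-like and NKT2-like cells it did so by 1.82 and 0.997. With an iNKT V beta segment the log2 ratio of Rgs16 was -0.56 (-1.15 to 0.05) in NKT2-like cells. NKT17-like cells with such a segment had 8 UMIs in BM + Spl and 10 in BM only, too few for a call. The interferon-like ratio rested on 29 and 6 UMIs.

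In the same way Rgs1 was lower in BM + Spl past 1.5-fold in cycling-like and interferon-like cells and higher, within 1.5-fold, in NKT1-like, NKT2-like, NKT17-like and Cd8a+Cd8b1+ cells, and the difference was not tested. Against cycling-like cells the log2 ratio of NKT1-like cells was 1.05 higher, that of NKT2-like cells 1.26 and that of NKT17-like cells 0.98, and against interferon-like cells these differences were 1.62, 1.82 and 1.55. Set against Cd8a+Cd8b1+ cells, cycling-like cells differed by -1.09 and interferon-like cells by -1.65. With an iNKT V beta segment the log2 ratio of Rgs1 was 0.10 (-0.15 to 0.37) in NKT2-like cells. It was 0.27 (-0.015 to 0.54) in NKT17-like cells, and both intervals hold 0. The summed NKT1 markers also differed, at 952 and 376 CPM in cycling-like and 3444 and 547 in interferon-like cells of BM only and BM + Spl, and their part was not tested. Gates with fewer than 50 cells in a library were not compared.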

How the results depend on the processing

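Of 528 member ratios under 11 alternatives that give ratios, 398 stayed within the counting interval of the reported value, 124 moved and 6 reversed, where only ratios past 1.5-fold could count as reversed. Among the others, Rgs1 in BM + Spl over BM only changed sign, to -0.41 in NKT1-like cells with Zbtb16 and to as low as -0.22 in NKT2-like cells. Of 84 counts of members past 1.5-fold, 71 stayed within 1.5 times the reported count. In BM + Spl over BM only, NKT2-like cells, the count of 1 became 2 with cells thinned to 2700 UMIs and 0 with 1 more marker per gate, without the top 6% of UMIs, with iNKT V beta segments alone, with gates set on thinned cells, without Fos-bearing cells and with Zbtb16-bearing cells alone. Rgs16 there reversed to -0.56 with iNKT segments, -0.074 without Fos, -0.99 without cells bearing a regulatory T cell or CD8 marker and -0.37 with Zbtb16. In NKT1-like cells the count of 2 became 1 with iNKT segments or with Zbtb16, where Rgs3 reversed to 0.043, and Rgs16 kept its direction, from 3.78 to 6.18. Over all cells the count of 2 became 4 without marker-bearing cells and 1 with Zbtb16, and Rgs16 reversed to -0.14 without Fos. The NKT17-like count in C57BL/6 went from 3 to 1 with thinned cells, and that of BM only over C57BL/6 in NKT1-like cells from 3 to 5 with median-of-ratios scaling, both added ones lower. The causes were not tested. The 2 alternatives on thinned gates and Fos and the 2 on markers were chosen after seeing the data. No paired analysis was possible because each condition was 1 library.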
